A study of Saccharomyces cerevisiae with 3 samples.

Results

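The transcripts of budding yeast cells that had reached the 11th generation were compared with those of cells at the 4th generation. Both came from BY4742, a haploid strain of alpha mating type with deletions of HIS3, LEU2, LYS2 and URA3, so these deletions were shared by every sample. Cells were labelled with biotin, grown in YPD, a rich glucose medium, at 30 °C, and the labelled cells of the later generations were collected on beads that bind biotin. RNA of the 4th or of the 11th generation was hybridised in Cy3 beside RNA of the 1st generation in Cy5, and the difference of the resulting log2 ratios, 11th minus 4th, is the quantity described here. It was formed for 5792 features, each a probe for a yeast gene, on 2 of the 3 arrays of the study; the array of the 7th generation is given beside them. Every generation was measured once, without dye swap, so no error, no test and no p-value can be given, and a difference means a difference between these arrays. Older cells were always in Cy3, so a ratio above or below the 1st generation cannot be told apart from a dye bias of that gene. Such a bias largely cancels in the difference of 2 arrays. A larger share of a kind of cell and more RNA per cell cannot be told apart in such bulk RNA. How long each culture grew and whether its medium was renewed are not given in the sources used here, so cell age and time in culture cannot be told apart.

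A budding yeast mother cell divides a limited number of times, and the count of its divisions is its replicative age. The biotin stays on the wall of the labelled mother, while daughters build new wall, which is how old mothers are separated from their young progeny. Replicative ageing of yeast is studied for its shifts in metabolism, mitochondrial and vacuolar function, iron supply and protein quality control.

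Signal was high enough to compare nearly all genes. Median raw Cy3 intensity was 523 at the 4th and 591 at the 11th generation, and median Cy5 intensity was 177 and 162. A probe was used when its Cy3 intensity was over a blank limit, set 2 SD over the mean of 320 empty spots, on at least one of the arrays compared, which 5710 features did. Of 8 spots for ACT1 (actin), 7 differed by between -0.152 and 0.0146 (log2), while the remaining spot stood at -1.63, with raw Cy5 intensities of 8658, 8996 and 27085 beside the 4th, 7th and 11th generation. LEU2 gave raw Cy3 intensities of 47 and 43, not above the blank limit on either array, LYS2 gave 56 and 50, also not above it, and URA3 gave 71 and 56, just above it. HIS3 was at 654 and 723, and where its probe lies relative to the deleted part is not known.

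Between the 4th and the 11th generation more genes stood higher than lower. Of the 5710 features, 150 (2.63%) were higher by 2-fold or more at the 11th generation and 50 (0.876%) lower by as much. At least 4-fold differences were found for 21 and 3 features. The highest were TMA10, a stress-induced protein that binds ribosomes, and the small heat shock protein HSP26; the lowest were ARO10, a decarboxylase of aromatic amino acid breakdown, and the polyamine exporter TPO4. The median difference over all features was 0.0061, which loess, centring each array, sets close to 0. The differences had an SD of 0.45 across features, while those between the 7th and the 4th generation had an SD of 0.176, with 9 features (0.159%) higher and 6 (0.106%) lower. From the 7th to the 11th generation 104 features (1.83%) were higher and 34 (0.597%) lower.

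**Figure D1:**
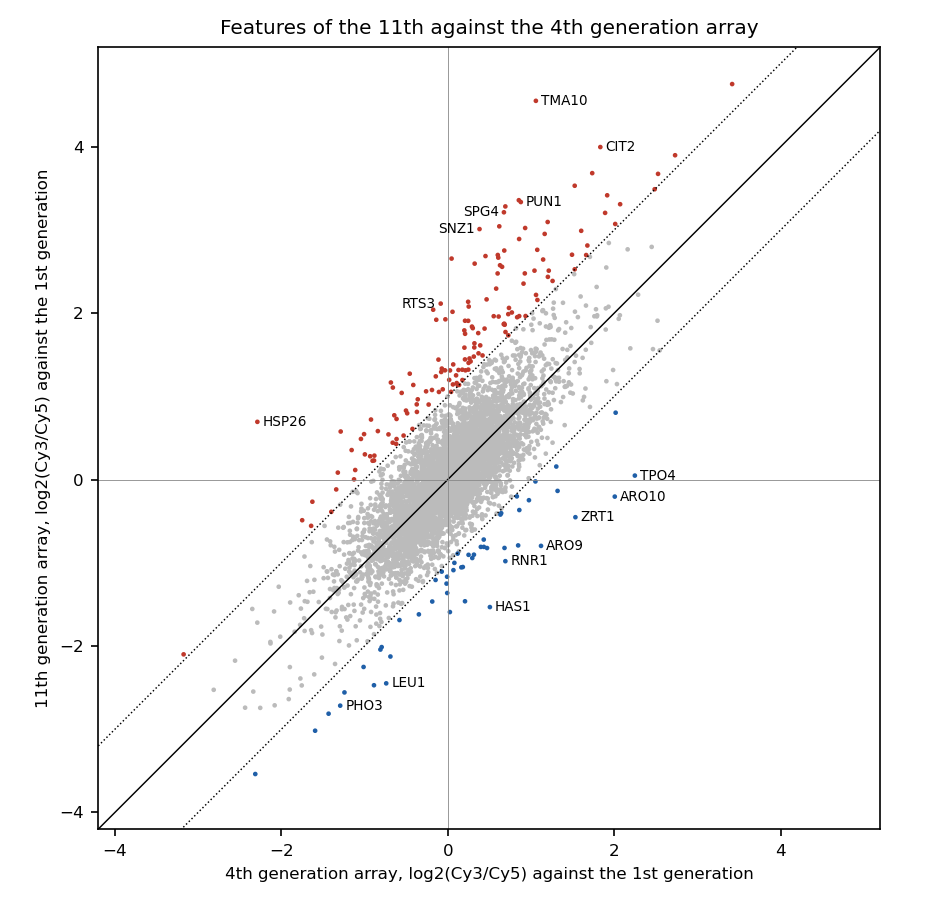
Each point is one of 5710 features, with its log2 ratio to the 1st generation on the 4th generation array (x axis) and on the 11th generation array (y axis). The solid line marks equal ratios and the dotted lines a 2-fold difference; the 150 red points lie above it and the 50 blue points below, with TMA10, at 1.06 and 4.55, and HSP26, at -2.29 and 0.69, farthest from the diagonal.

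Most of the difference lay in the Cy3 channel, which holds the older cells. Set against each other after normalization, the Cy3 values of both arrays had an SD of 0.541 across features and the Cy5 values, which hold 1st generation RNA on both, an SD of 0.26. Cy5 was at least 2-fold higher on the 11th generation array for 0.981% of features and at least 2-fold lower for 0.385%, and Cy3 for 4.12% and 1.7%. All 150 higher features were also higher in these Cy3 values, 136 of them by at least 2-fold. Of the 50 lower features 46 were lower in Cy3, 39 by at least 2-fold. The difference in the ratio is the Cy3 difference minus the Cy5 difference, so these counts divide it and do not support it. Among the features past 2-fold, the 1st generation signal itself was at least 2-fold apart for 9 of the higher and 7 of the lower. These include RTS3, a presumed partner of protein phosphatase 2A, at 5.83-fold apart, HAS1, a helicase of ribosome assembly, at 4.79-fold apart, NOP10, a component of the pseudouridine-forming snoRNPs, at 3.96-fold apart, and HXT7, a high-affinity hexose transporter, at 3.11-fold apart.

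**Figure D2:**
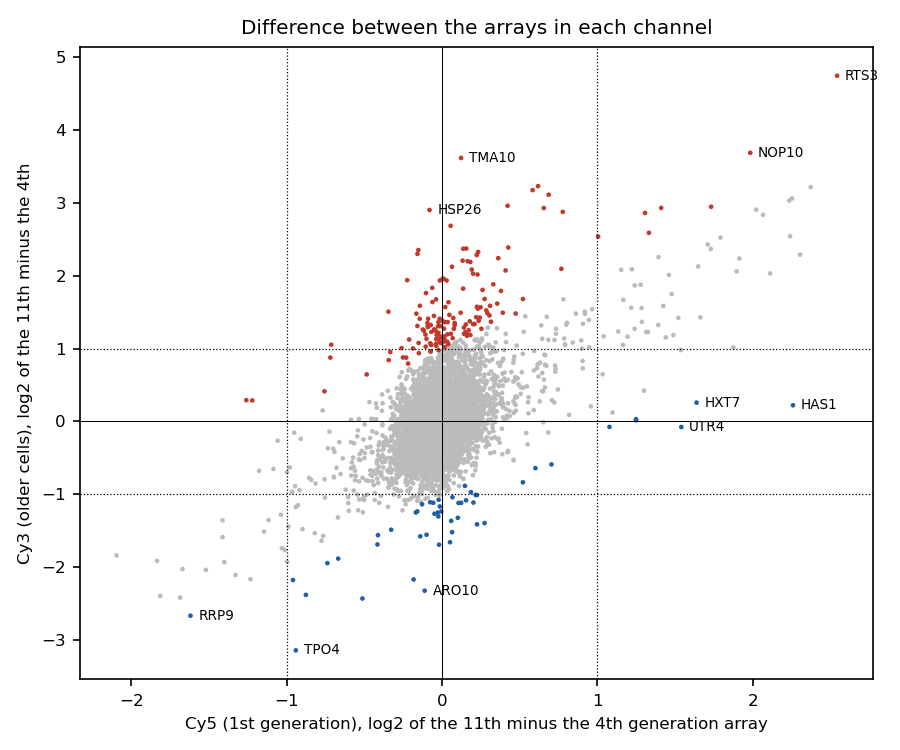
For each of 5710 features the difference between the 11th and the 4th generation array is drawn in the 1st generation channel (x axis, Cy5, log2) and in the channel of the older cells (y axis, Cy3, log2). Red and blue points are the features at least 2-fold higher and lower in the ratio; most of them sit near 0 on the x axis, while HAS1, UTR4 and HXT7 lie near 0 on the y axis and far to the right.

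The 15 genes farthest above their 4th generation level were led by stress and stationary phase genes. TMA10 (YLR327C) gave log2 ratios to the 1st generation of 1.06, 1.72 and 4.55 at the 4th, 7th and 11th generation, with raw Cy3 intensities of 920, 1420 and 11488, and was 11.3-fold higher at the 11th than at the 4th. HSP26 (YBR072W), which holds unfolding proteins, gave -2.29, -1.12 and 0.69 and was 7.90-fold higher. SNZ1 (YMR096W), a subunit of the enzyme that makes pyridoxal phosphate, gave 0.38, 0.78 and 3.01 and was 6.19-fold higher. In all of these genes the step from the 7th to the 11th generation was wider than that from the 4th to the 7th, and HSP26 alone among them began below the 1st generation. NQM1 (YGR043C), a transaldolase of the pentose phosphate pathway induced on poor carbon sources, gave 0.69, 1.56 and 3.28 and was 6.03-fold higher. SPG4 (YMR107W), needed for survival of stationary phase at high temperature, gave 0.68, 0.80 and 3.21 and was 5.81-fold higher. HSP12 (YFL014W), a small membrane-stabilising stress protein, gave 0.45, 0.39 and 2.69 and was 4.70-fold higher. SPG4 and HSP12 stood at about the same level at the 4th and the 7th generation and apart only at the 11th.

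Carbon metabolism, iron, sterol and cell surface genes made up most of the remainder of these 15. CIT2 (YCR005C), the peroxisomal citrate synthase, gave 1.83, 2.79 and 4.00 and was 4.48-fold higher, and PCK1 (YKR097W), the carboxykinase of gluconeogenesis, gave -0.17, 0.07 and 2.04 and was 4.65-fold higher. FIT3 (YOR383C), a wall mannoprotein that retains siderophore-bound iron, gave 0.62, 1.35 and 3.04 and was 5.37-fold higher. LSO1 (YJR005C-A), a small protein induced when iron is short, gave 0.60, 0.66 and 2.70 and was 4.28-fold higher. CIT2 was higher by nearly equal steps over the 3 arrays, whereas PCK1 and LSO1 were close to their 4th generation level at the 7th. PUN1 (YLR414C), a plasma membrane protein of wall stress and filamentous growth, gave 0.88, 0.51 and 3.34 and was 5.49-fold higher. HES1 (YOR237W), an oxysterol-binding protein, gave 0.93, 1.55 and 3.02 and was 4.27-fold higher. PUN1 was the member of this group with the clearest dip at the 7th generation before its highest value at the 11th. DPI8 (YJL133C-A) and PBI1 (YPL272C) were 5.67-fold and 4.83-fold higher. RTS3 (YGR161C) was 4.59-fold higher, with raw Cy5 intensities of 67 and 456 on the 4th and 11th generation arrays, so its ratio rests on a reference that differed between them.

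The 15 genes farthest below their 4th generation level included ARO9 and ARO10, which encode enzymes of the breakdown of aromatic amino acids. ARO10 (YDR380W), the phenylpyruvate decarboxylase, gave log2 ratios of 2.01, 2.10 and -0.20 and was 4.63-fold lower at the 11th generation, with raw Cy3 intensities of 3616, 3303 and 781. ARO9 (YHR137W), an aromatic aminotransferase that acts before it, gave 1.12, 0.93 and -0.80 and was 3.78-fold lower. Both were above the 1st generation at the 4th and the 7th and below it at the 11th. TPO4 (YOR273C) gave 2.25, 1.87 and 0.05 and was 4.60-fold lower. ZRT1 (YGL255W), the high-affinity zinc importer, gave 1.53, 0.93 and -0.45 and was 3.96-fold lower. TPO4 and ZRT1 thus started from high ratios and came back to near the 1st generation level or just under it.

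LEU1 (YGL009C), an enzyme of leucine synthesis, gave -0.74, -1.02 and -2.45 and was 3.27-fold lower. RNR1 (YER070W), the large subunit of ribonucleotide reductase, gave 0.69, 0.41 and -0.98 and was 3.19-fold lower. UTR2 (YEL040W), which links chitin to glucan in the wall, gave 0.85, 0.33 and -0.79 and was 3.11-fold lower. LEU1 was already below the 1st generation at the 4th, while RNR1 and UTR2 passed from above it to below it. MF(ALPHA)2 (YGL089C), a gene of the alpha pheromone, gave -0.89, -1.33 and -2.47 and was 3.00-fold lower. PHO3 (YBR092C), the acid phosphatase repressed by thiamine, gave -1.29, -1.39 and -2.72 and was 2.68-fold lower. EHT1 (YBR177C), which makes ethyl esters of fatty acids, gave 1.32, 0.79 and -0.14 and was 2.74-fold lower. The pheromone and phosphatase genes were lower than in the 1st generation on all 3 arrays, and EHT1 only on the last. EFM2, a methyltransferase of elongation factors, PRM7, a pheromone-regulated gene, and YDL038C were between 2.71-fold and 3.18-fold lower. YDL038C had no entry in the RefSeq gene table used, so it may not be a gene apart from its neighbour PRM7. HAS1 (YMR290C) and UTR4 (YEL038W), the latter of methionine salvage, were 4.11-fold and 3.07-fold lower in the ratio, but their raw Cy5 intensities were 446 and 2132 for HAS1 and 330 and 952 for UTR4. In Cy3 normalized without Cy5, called Cy3 alone, HAS1 differed by 0.022 and UTR4 by -0.14 (log2), so neither was past 2-fold in the RNA of the older cells taken by itself.

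**Figure D3:**
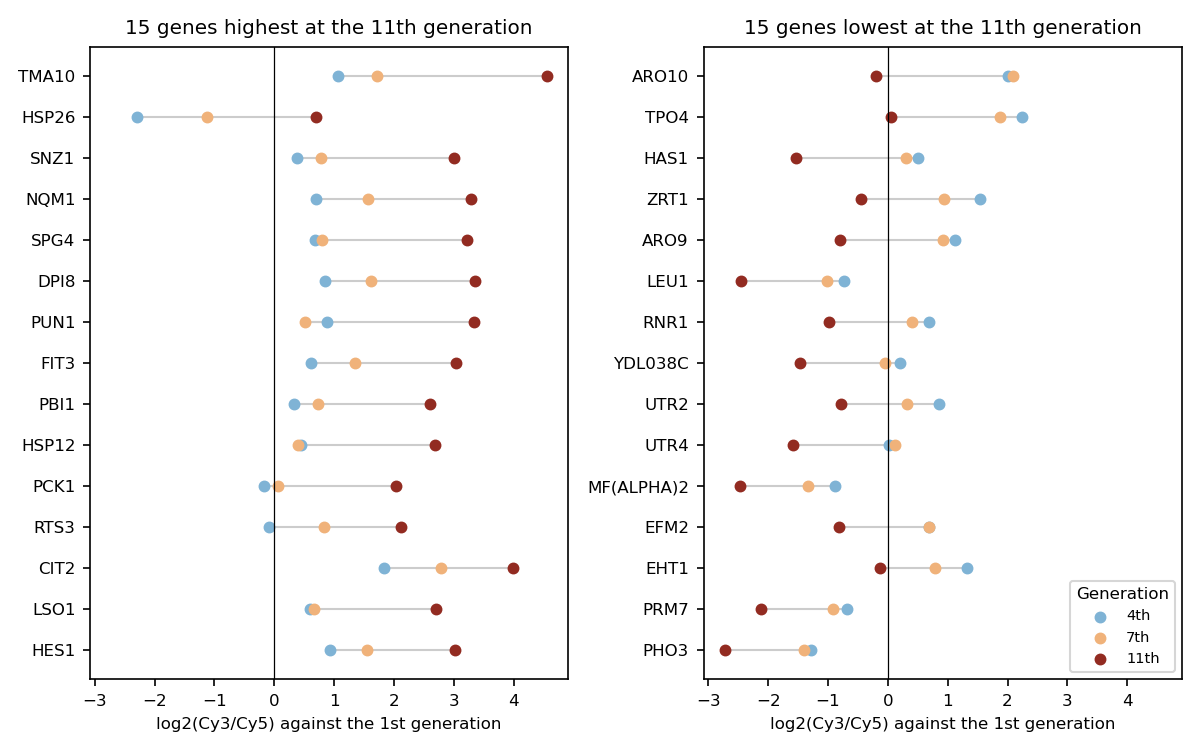
Log2 ratios to the 1st generation (x axis) of the 15 genes highest (left) and the 15 lowest (right) at the 11th against the 4th generation, with 1 point for each array. The 7th generation point lies close to that of the 4th in most rows, and the 11th stands apart, for example at 4.55 for TMA10 and at -0.20 for ARO10.

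The array of the 7th generation lay between the others for most of these genes, nearer to the 4th. Of the 150 higher features 136 were already higher at the 7th than at the 4th, by a median of 0.221 (log2), against a median of 1.11 from the 7th to the 11th. Of the 50 lower features 43 were already lower, by a median of -0.232, against -1.08 from the 7th to the 11th. Past 2-fold already between the 4th and the 7th were 5 of the higher and 1 of the lower. Both steps share the 7th generation array and add up to the difference described, so they divide it and do not support it. Against the 1st generation, 97 of the 150 higher features were already above at the 4th and 144 were above at the 11th. Of the 50 lower features 31 were above the 1st generation at the 4th and 3 at the 11th. A crossing of the 1st generation level by at least 0.5 (log2) on each side was seen for 13 of the higher features, HSP26 among them, and 5 of the lower, RNR1 and UTR2 among them. Places above and below the 1st generation rest on ratios of single arrays without dye swap, in which a dye bias of a gene remains.

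Cell wall mannoproteins of the seripauperin and TIR/DAN families, which yeast makes in the cold and when oxygen is low, formed the list farthest above the other genes. Of 27 members 19 (70.4%, against 2.63% overall) were past 2-fold upward and none downward, with a median difference of 1.22 against 0.0061 over all features. The median ratio of the list to the 1st generation was 0.39 at the 4th and 1.82 at the 11th. PAU13 (YHL046C) gave log2 ratios of 0.06, 0.22 and 2.02 and was 3.89-fold higher, PAU24 (YBR301W) gave 0.65, 1.01 and 2.56 and was 3.74-fold higher, and PAU5 (YFL020C) gave 0.25, 0.33 and 2.14 and was 3.71-fold higher. PAU13 and PAU5 lay close to the 1st generation at the 4th and the 7th, PAU24 was already above it at both, and all of them were highest at the 11th. DAN1 (YJR150C), a wall protein of anaerobic cells, had raw Cy3 intensities of 59, 73 and 1045 and a difference of 2.61, but its Cy5 signal was not above the blank limit on either array. Within the list the 20 seripauperins had a median of 1.24, with 16 past 2-fold, and the 7 TIR, TIP and DAN genes a median of 0.97, with 3 past 2-fold. TIP1 and TIR2 stood below 0, at -0.18 and -0.38. Seripauperin genes are near copies of each other, so that their probes may share signal and the members are not separate observations. They are also short, and with the running median over gene length taken off, the list's median was 0.98.

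Iron uptake genes stood higher, mainly those that handle siderophores, the iron chelators that yeast takes up from other microbes. Of 13 siderophore uptake genes 5 (38.5%, against 2.63% of all features) were at least 2-fold higher, none was lower, 12 were above 0, and the median was 0.74. FIT2 (YOR382W) gave 1.53, 1.86 and 3.53 and was 4.02-fold higher, as its neighbour FIT3 was at 5.37-fold. ARN2 (YHL047C), a transporter of triacetylfusarinine-type siderophores, gave 1.21, 1.37 and 2.51 and was 2.46-fold higher. ARN1 (YHL040C), a transporter of ferrichromes, was 2.94-fold higher, with Cy5 2.47-fold apart between the arrays. The 7 transporters and FIT wall proteins were all above 0 with a median of 1.30, and the 6 FRE reductases, which free iron at the surface, had a median of 0.27 with none past 2-fold. The list of reductive uptake and iron-sparing genes had 3 of 16 (18.8%) higher, none lower and a median of 0.54. In it TIS11 (YLR136C), which speeds the decay of mRNAs of iron-using proteins, gave 1.92, 2.33 and 3.42 and was 2.83-fold higher, and the heme oxygenase HMX1 gave 1.53, 1.20 and 2.53 and was 2-fold higher, just inside the threshold and outside it with loess within blocks (0.88) or the length trend taken off (0.93), while the copper chaperone ATX1 was just outside it. The iron genes thus began above the 1st generation level at the 4th generation, where the median ratios of both lists were 0.62 and 1.08, and ended at 1.41 and 1.22.

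Genes of the retrograde response, by which cells with failing respiration raise the supply of 2-oxoglutarate, divided into targets and regulators. All 7 target genes were above 0, with a median of 0.91 and 3 past 2-fold, against 2.63% of all features. All 5 regulators, RTG1, RTG2, RTG3, MKS1 and GRR1, were below 0, with a median of -0.34 and none past 2-fold. IDH1 (YNL037C) and IDH2 (YOR136W) encode both subunits of the mitochondrial isocitrate dehydrogenase. IDH1 gave 0.25, 0.27 and 2.08 and was 3.55-fold higher, and IDH2 gave -0.19, -0.36 and 1.08 and was 2.41-fold higher, IDH2 being just short of 2-fold in the authors' deposited values (0.97) and in Cy3 alone (0.98). Both were near or below their 4th generation level at the 7th, unlike CIT2. The citrate synthase CIT1 (YNR001C) and the aconitase ACO1 (YLR304C) were 1.88-fold and 1.86-fold higher.

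Other genes of mitochondria and of growth on carbon sources other than glucose stood on either side of 0. All 11 genes of the glyoxylate cycle and gluconeogenesis were above 0, with a median of 0.46 and with CIT2, PCK1 and the acetyl-CoA synthetase ACS1, at 2.67-fold, past 2-fold. Of 19 TCA cycle genes 13 were above 0, with a median of 0.41, and only IDH1 and IDH2 were past 2-fold. Mitochondrial ribosomal proteins had 66 of 74 above 0, and a median of 0.40. Past 2-fold were 2 (2.70%, against 2.63% of all features), RSM19 (YNR037C) at 2.50-fold and MRPS8 (YMR158W) at 2.15-fold. With the trend over gene length taken off, their median was 0.26 and MRPS8, at 0.88 (log2), was short of 2-fold. The 14 subunits of the ATP synthase had a median of 0.47 with 11 above 0, and the 17 subunits of respiratory complexes III and IV a median of -0.24 with 11 below 0. In Cy3 after normalization these medians were 0.33 and -0.038, so that complexes III and IV were level in the channel of the older cells. In the ratio with the trend over gene length taken off they were 0.24 and -0.48. The place of complexes III and IV thus depends on the measure. QCR2 (YPR191W), a core subunit of complex III, gave -0.86 at the 4th and -1.73 at the 11th generation and was 1.83-fold lower. ATP5 (YDR298C), a stalk subunit, was 2.93-fold higher in the ratio, with Cy5 2.40-fold apart and a difference of 0.25 in Cy3 alone. STF2 (YGR008C), an ATP synthase stabilising factor related in sequence to TMA10, gave 1.08, 1.22 and 2.76 and was 3.22-fold higher.

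Sugar uptake and glycolysis were mixed. Of 18 hexose transporters and glucose sensors, HXT2 (YMR011W) gave -0.92, -0.71 and 0.72 and was 3.13-fold higher. HXT1 (YHR094C), the low-affinity carrier used at high glucose, gave -1.75, -1.19 and -0.49 and was 2.40-fold higher. HXT5 (YHR096C), the carrier of slow-growing cells, gave -0.11, -0.08 and 1.05 and was 2.23-fold higher. HXT1 was short of 2-fold with median centring (0.79) and in the authors' deposited table (0.71). It stayed below the 1st generation throughout, and HXT2 and HXT5 ended above it. HXT7 was 2.61-fold lower in the ratio and 0.31 higher (log2) in Cy3 alone, so that its direction depends on the reference channel. The 25 genes of glycolysis and fermentation had 12 above 0 and a median of -0.01, which was -0.27 with median centring and -0.36 in the authors' deposited table. TDH1 (YJL052W), the glyceraldehyde phosphate dehydrogenase isozyme of slow growth, gave 0.63, 1.31 and 2.58 and was 3.86-fold higher. PDC6 (YGR087C), a minor pyruvate decarboxylase, was 2.66-fold higher, with Cy5 on the 4th generation array not above the blank limit.

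**Figure D4:**
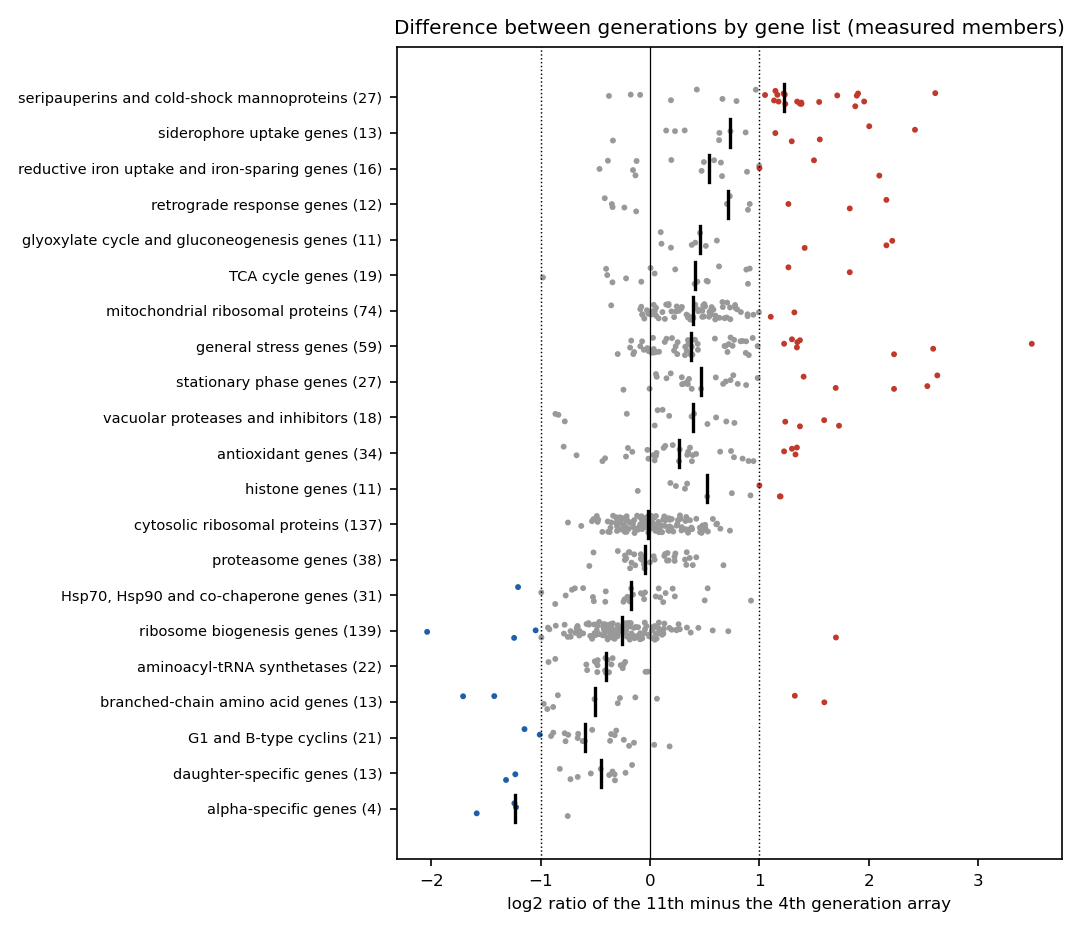
Each point is one gene, drawn at its log2 difference between the 11th and the 4th generation array (x axis), for 21 gene lists (y axis, with the number of measured members). Black bars are medians, dotted lines mark 2-fold, and red and blue points lie past it; the mannoproteins at the top have a median of 1.22 and the alpha-specific genes at the bottom one of -1.23, with cytosolic ribosomal proteins at -0.02.

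Stress genes stood mostly above 0, while most chaperone genes did not. Of 59 general stress genes 8 (13.6%, against 2.63% of all features) were at least 2-fold higher, none was lower (0.876% of all) and 49 were above 0, with a median of 0.37. Of 27 stationary phase genes 5 (18.5%) were higher, none lower and 25 above 0, with a median of 0.47, or 0.27 with the trend over gene length taken off. MPC3 (YGR243W), a subunit of the mitochondrial pyruvate carrier used in respiration, gave 0.47, 0.57 and 2.17 and was 3.25-fold higher. SNO1 (YMR095C), the glutaminase partner of SNZ1, was 2.65-fold higher, with Cy5 on the 11th generation array not above the blank limit. Among 13 small heat shock and disaggregase genes the median was -0.00, since HSP26 and HSP12 were far above 0 while 7 members were below it. HSP42 (YDR171W), which gathers misfolded protein, gave 2.03, 1.25 and 1.15 and was 1.85-fold lower, and CUR1 (YPR158W), a sorting factor for misfolded protein, gave 2.47, 2.02 and 1.57 and was 1.86-fold lower. Both remained above the 1st generation on every array and were highest at the 4th. The list of Hsp70, Hsp90 and their co-chaperones had a median of -0.17 with 10 of 31 above 0. In it SIS1 (YNL007C), an Hsp40, gave 2.55, 1.99 and 1.55 and was 1.99-fold lower, HSP82 (YPL240C), an Hsp90, gave 1.18, 0.37 and 0.31 and was 1.82-fold lower, and SSA2 (YLL024C), an Hsp70, gave 0.40, 0.32 and -0.81 and was 2.31-fold lower, or at -0.98 (log2) with loess within blocks. HSP82 and HSP42 had most of their difference between the 4th and the 7th generation, unlike the late step of TMA10 and HSP12.

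Genes of vacuolar proteases and their inhibitors, and antioxidant genes, stood mostly above 0. The 52 features annotated to the vacuole as a whole had a median of 0.015, with 27 above 0. The list of vacuolar proteases and inhibitors has 18 members, among them 4 VTC genes, which are neither. Of all 18, 4 (22.2%, against 2.63% of all features) were higher, none lower and 14 above 0, with a median of 0.39. APE1 (YKL103C), an aminopeptidase carried to the vacuole by the Cvt pathway, gave -0.46, 0.19 and 1.27 and was 3.32-fold higher. The inhibitor of protease B, PBI2 (YNL015W), gave 0.20, 0.60 and 1.79 and was 3.02-fold higher, and that of protease A, PAI3 (YMR174C), gave -0.08, 0.08 and 1.29 and was 2.59-fold higher. A protease and the inhibitors of other proteases were thus higher together. Of the 4 VTC genes of the list, which make polyphosphate, 3 were below 0. Of 33 autophagy genes 25 were above 0, with a median of 0.18, and ATG5 (YPL149W), which helps attach ATG8 to membrane, was past 2-fold at 2.12-fold. Antioxidant genes had a median of 0.27, or 0.12 with the trend over gene length taken off. Past 2-fold were 4 of 34 (11.8%). These were the glutathione transferase GTT1 (YIR038C) at 2.54-fold, the peroxiredoxins TSA2 (YDR453C) at 2.52-fold and PRX1 (YBL064C) at 2.46-fold, and the thioredoxin TRX2 (YGR209C) at 2.34-fold. TRX2 gave -1.11, -0.81 and 0.12 and was short of 2-fold under median centring (0.86), in the authors' deposited values (0.78) and in Cy3 alone (0.92). All of these started below the 1st generation and ended above it.

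Histone genes stood higher while genes of DNA replication and the cell cycle stood lower. All 8 core histone genes were above 0, with a median of 0.83, or 0.60 with the trend over gene length taken off. HHT1 (YBR010W) and HHT2 (YNL031C), both encoding histone H3, were 2.29-fold and 2.28-fold higher, with log2 ratios of 0.68, 0.85 and 1.87 for HHT1 and of 0.13, 0.38 and 1.32 for HHT2, and HTA1, encoding H2A, was just inside the 2-fold threshold. None of these 3 reached 2-fold under median centring, at 0.79, 0.76 and 0.81 (log2), in the authors' deposited values, at 0.71, 0.67 and 0.74, or with the length trend taken off, at 0.96, 0.95 and 0.75. Such gene pairs are close copies and their probes may share signal. The median of 27 genes of replication licensing and polymerases was -0.20 with 9 above 0, and that of the 21 cyclins and their partners was -0.60 with 2 above 0. CLB2 (YPR119W), the main mitotic cyclin, gave 1.31, 0.30 and 0.16 and was 2.22-fold lower, and SWI5 (YDR146C), a transcription factor of mitotic exit, gave 0.12, -0.34 and -0.89 and was 2.01-fold lower, short of 2-fold with loess within blocks (-0.99) and with the length trend taken off (-0.90). CLB2 had most of its difference between the 4th and the 7th generation. CLB1 (YGR108W), its paralog, gave 1.80, 2.06 and 1.98 and so differed by 0.18. In the list of ribonucleotide reductase and DNA damage genes, HUG1 (YML058W-A), a small inhibitor of the reductase that is induced by DNA damage, gave 0.61, 0.95 and 2.67 and was 4.17-fold higher, opposite to RNR1.

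Several groups of protein synthesis genes had medians slightly below 0. All 22 aminoacyl-tRNA synthetase genes were below 0, with a median of -0.41 and none past 2-fold. HTS1 (YPR033C), for histidine, was 1.90-fold lower, with raw Cy5 intensities of 872 and 360 on the 4th and 11th generation arrays, and MES1 (YGR264C), for methionine, was 1.82-fold lower. Of 139 ribosome biogenesis genes 32 were above 0, with a median of -0.25, 1 higher and 3 lower, where all features gave 2.63% and 0.876%. The higher one was NOP10 and the lower were HAS1, RRP9 and DRS1, of which only DRS1 (YLL008W), an RNA helicase, at 2.37-fold lower, had Cy5 less than 2-fold apart. DRS1 was at -0.69 (log2) in Cy3 alone, and RRP9 was short of 2-fold under median centring (-0.91) and loess within blocks (-0.82), in the authors' deposited values (-0.85) and with the length trend taken off (-0.96). The 137 cytosolic ribosomal proteins had a median of -0.02, with 64 above 0 and none past 2-fold, and translation factors a median of -0.19. With median centring, and likewise in the authors' deposited table, the ribosomal proteins were at -0.21 and -0.30, beside translation factors at -0.27 and -0.35, so the gap between these lists depends on the scaling. The synthetases were below 0 on balance at the 4th generation too, with a median ratio of -0.19, and reached -0.58 at the 11th.

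Genes of branched-chain amino acids stood mostly below 0. Of 13 members 3 were above 0, and the median was -0.51. Past 2-fold were 2 upward and 2 downward, where all features gave 2.63% and 0.876%. The 10 members that serve synthesis had a median of -0.86, and 9 of them were below 0. This split was made after the values were seen, with BAT1 in it and BAT2 and CHA1 left out. ILV3 (YJR016C), the dihydroxyacid dehydratase, an iron-sulfur enzyme, gave -1.59, -1.89 and -3.02 and was 2.68-fold lower, beside LEU1 at 3.27-fold lower. BAT2 (YJR148W), the cytosolic aminotransferase, gave -0.36, 0.39 and 0.97 and was 2.51-fold higher, while BAT1 (YHR208W), its mitochondrial counterpart, gave -0.82, -0.95 and -1.76 and was 1.92-fold lower. CHA1 (YCL064C), which breaks down serine and threonine, gave -0.55, 0.44 and 1.04 and was 3.02-fold higher in the ratio, with raw Cy5 intensities of 1187 and 650 on the 4th and 11th generation arrays and a difference of 0.82 (log2) in Cy3 alone, short of 2-fold. LEU2 is deleted in this strain. Genes of aromatic amino acids had 1 of 16 above 0 and a median of -0.13, with ARO9 and ARO10, which encode enzymes of breakdown, the only members past 2-fold.

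Sterol and membrane genes had no common direction. Ergosterol genes had a median of -0.10 with 11 of 28 above 0. ERG11 (YHR007C), the lanosterol demethylase, gave 0.30, -0.05 and -0.94 and was 2.36-fold lower, and HMG1 (YML075C), the main HMG-CoA reductase, gave 0.43, 0.03 and -0.72 and was 2.22-fold lower, or at -0.97 (log2) with the length trend taken off. UPC2 (YDR213W), an activator of sterol genes, gave 0.58, 0.73 and 1.43 and was 1.81-fold higher. Among hypoxic genes ANB1 (YJR047C), the anaerobic form of eIF5A, gave 0.93, 0.93 and 2.48 and was 2.93-fold higher, and OLE1 (YGL055W), the fatty acid desaturase, gave 0.21, 0.87 and 1.31 and was 2.14-fold higher, but 0.76 and 0.68 (log2) with median centring and in the authors' deposited table, short of 2-fold. The list of hypoxic genes as a whole had a median of 0.05, with 10 of 19 above 0. Of the wall integrity genes NCW2 (YLR194C), a wall protein, gave 1.20, 1.71 and 3.10 and was 3.72-fold higher, and GSC2 (YGR032W), the inducible glucan synthase subunit, gave 0.25, 0.47 and 1.32 and was 2.11-fold higher, but 0.97 and 0.91 (log2) under the same alternatives. UTR2, of the same list, was 3.11-fold lower, and the list's median was 0.12.

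Genes that mark mating type and young cells were set beside these results. The 4 alpha-specific genes were all below 0, 3 of them past 2-fold (0.876% of all features were), and their median was -1.23. STE3 (YKL178C), the receptor for a-factor, gave -1.01, -1.48 and -2.25 and was 2.36-fold lower, and SAG1 (YJR004C), the alpha-agglutinin, gave -2.31, -2.77 and -3.54 and was 2.34-fold lower. MF(ALPHA)1 (YPL187W) was 1.68-fold lower in the ratio, with Cy5 1.94-fold apart and a difference of 0.06 in Cy3 alone. Summed over the list, normalized Cy3 signal was 8308, 7137 and 3942 at the 4th, 7th and 11th generation, while Cy5 was 17089 on the 4th and 19492 on the 11th generation array. Strong genes weigh most in such a sum. Raw Cy3 intensities were 7715, 5212 and 2663 for MF(ALPHA)2, but 1715, 2511 and 1963 for MF(ALPHA)1. The 7 a-specific genes, silent in alpha cells, had a median of -0.04 with none past 2-fold, and their summed Cy3 signal was 872, 767 and 860. Some a genes lay near the blank limit. All 7 were above it in Cy3 at the 4th and the 11th generation and 5 at the 7th, and AGA2 had raw Cy3 intensities of 71, 61 and 88. The alpha genes were thus lower without a measured rise in the a genes, where a small rise could be missed. The 9 meiosis genes, which mark another cell fate, had summed Cy3 signal of 971, 986 and 1118. An offset of 50 was added to each intensity before normalization, so sums of weak genes vary less than their signal does. The median difference of the meiosis genes was 0.10, but 0.37 with plain subtraction of the blank signal and 0.71 in the authors' deposited values. Under the same alternatives the median of the a-specific genes was -0.07 and 0.03.

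All 13 genes of the daughter-specific list, chosen to mark newborn cells after division, were below 0, with a median of -0.45. Of them 2 were past 2-fold, against 0.876% of all features. The list includes SIC1, EGT2 and PIR1, and whether each member is confined to newborn cells was not tested. EGT2 (YNL327W), a wall enzyme of cell separation, gave -1.24, -1.37 and -2.56 and was 2.49-fold lower, and DSE2 (YHR143W), a daughter wall glucanase, gave 0.18, -0.06 and -1.05 and was 2.35-fold lower. Their summed Cy3 signal was 11152, 12133 and 7263, against Cy5 of 16180 on the 4th and 16719 on the 11th generation array. All 13 were above the blank limit in Cy3 on every array. The daughter genes were thus lowest at the 11th generation, as the cyclins were, and their part in the other results was not tested.

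Short genes stood higher than long ones, which bears on the lists of short genes above. The 150 higher features had a median gene length of 700.5 bp, the 49 lower features with a length 1542 bp, and all 5653 features with a length 1230 bp. Of 671 genes under 500 bp 57 (8.49%) were at least 2-fold higher, with a median difference of 0.235, and of 4982 longer genes 93 (1.87%), with a median of -0.022. Leaving out seripauperins and their relatives, 41 of 131 higher features (31.3%) were under 500 bp, against 11.9% of all. The running median over length ran from 0.263 to -0.2. Taking it off gave 123 higher features, 118 of them among the 150, and 50 lower, 43 of them among the 50. The part of length in single results was not tested.

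**Figure D5:**
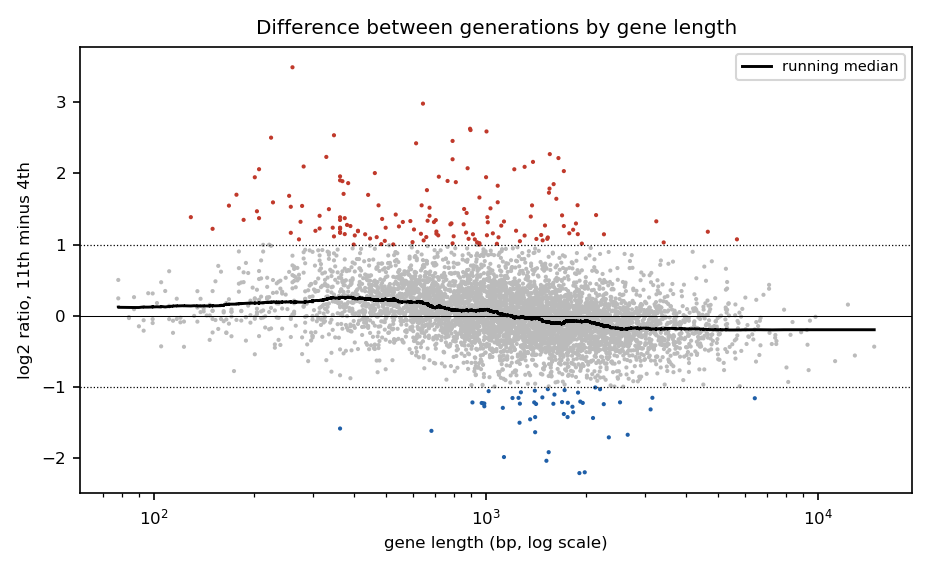
The log2 difference between the 11th and the 4th generation array (y axis) is drawn against gene length in bp (x axis, log scale) for the features with a known length; the black line is the running median. It lies above 0 for short genes, up to 0.263, and below 0 for long ones, down to -0.2, and red and blue points are those past 2-fold.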

How the data were processed

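The authors deposited, for each array, spot intensities of both dyes that are raw per the file headers, and a table of log2 ratios, which served as an alternative only. Per the labels, Cy3 held the older cells and Cy5 the 1st generation. Intensities of all spots were corrected by normexp with an offset of 50 and normalized by loess array by array (limma 3.58.1, R 4.3.3), giving controls weight 0. Spots of a feature were averaged, and the 4th generation log2 ratio was taken from that of the 11th in Python 3.11.15. Values of single channels are those after loess and Aquantile, and those called Cy3 alone are from Cy3 quantile-normalized by itself. The normalization was tested on simulated data.

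Gene names came from the files, updated by locus tag from a RefSeq gene table that matched 5730 of 5792 features; its gene lengths were used and no coordinates. The 35 features for several loci were not named or placed in lists. Members and the 61 lists were chosen with earlier results of these data known. Named were the 15 features farthest to either side past 2-fold that name a single gene and have Cy5 above the blank limit on both arrays, the 4 members of each described list with the largest difference, all members of lists of at most 8, deleted genes and cell type markers. ACO1, BAT1, CLB1, CIT1, TIP1, TIR2, the retrograde regulators and the subgroups within lists were chosen after their values were seen, and list members short of 2-fold are given as values.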

Additional observations from a re-analysis of the deposited data

How the results depend on the processing

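No paired analysis was possible because each generation has 1 array. Median centring, loess within blocks, no background correction, the running median over signal or gene length, 3 other filters and leaving out features with Cy5 at least 2-fold apart kept both counts within 1.5 times of 150 and 50. The alternatives on gene length and on Cy5 were added after the data had been seen. Plain subtraction of the blank signal gave 375 higher and 201 lower features, the authors' deposited values 318 and 137, and Cy3 alone 249 and 113. An offset of 16 gave 211 and 78, a 1.5-fold threshold 495 and 313, and a 3-fold threshold 43 and 11. HAS1 and HXT7 turned to 0.022 and 0.31 (log2) in Cy3 alone, where the reference channel is left out. No list with a median of at least 0.4 either way changed sign under any alternative. Why the counts moved was not tested. The number of arrays, 1 per generation, limits the precision. DAN1 and SNO1, near the blank limit, were at 5.23 and 4.66 (log2) under plain subtraction against 2.61 and 1.41.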

Other observations

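Higher genes lay next to each other in 15 of 5558 pairs of neighbouring measured genes, and lower genes in 1 pair. Opposite directions were seen in 2 pairs. Of all features 2.63% were higher and 0.876% lower, and how many pairs these shares alone would give was not tested. Among the higher pairs were SNO1 and SNZ1, FIT2 and FIT3, ARN2 and PAU13, and HXT1 and HXT5. Another was IDH1 and NCE103, the carbonic anhydrase gene, whose differences were 1.83 and 1.34 (log2).

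Of 296 measured features among the 10 outermost at each chromosome end, 30 (10.1%) were at least 2-fold higher and 2 lower. Among all features 2.63% were higher and 0.876% lower. Without the list of seripauperins and related mannoproteins, 17 of 281 (6.05%) were higher, against 2.31% of all features outside that list, and the median of these end features was 0.069.

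Features whose biological process the files give as unknown made up 61 of the 150 higher features (40.7%), 8 of the 50 lower (16%) and 23.8% of all. In the files' own annotation the subunits of the mitochondrial ribosome, small and large, had medians of 0.37 and 0.39, v-SNAREs 0.44, snoRNA binding -0.36 and tRNA methylation -0.32.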
